A study of Mus musculus with 4 samples.

Results

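The dendritic cell genes described here are 10 genes that mark dendritic cells in lung tumours of CD109-/- and CD109+/+ mice, out of 23787 genes that could be named on the arrays. They were chosen by gene name, and all 14 array probes whose transcript accession belongs to one of them were read. Clec9a, Xcr1 and Batf3 stood for conventional type 1 cells, Cd209a for conventional type 2 cells, Flt3 and Zbtb46 for conventional cells as a whole, Ccl17, Ccl22 and Fscn1 for the mature state, and Siglech for plasmacytoid cells.

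Gene expression had been measured in 2 CD109-/- and 2 CD109+/+ samples of mouse lung tumours on 1-colour Agilent arrays, 1 array per sample. All 4 samples were of the C57BL/6J strain and carried the KP background, an abbreviation that the labels do not spell out. The tumours had been started with adenoviral Cre given into the trachea 88 to 92 days before RNA was taken. CD109-/- replicate 1 was male, whereas CD109-/- replicate 2 and both CD109+/+ replicates were female. The age of the mice, the promoter driving Cre and the way tumours were cut from the lung are not given in the sources used here. No sorting of cells is described, so the RNA is taken as that of whole tumours. Each label names a mouse without saying that all replicates were separate animals, so the p-values measure only the spread between these samples.

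Dendritic cells take up antigen, carry it to lymph nodes and show it to T cells. Growth of all their conventional subsets depends on the receptor FLT3 and its ligand. Type 1 cells, which need the transcription factor BATF3, present antigen of dead cells to CD8 T cells, type 2 cells mostly prime CD4 T cells, and plasmacytoid cells make type I interferon. In mouse lung tumours they are known as a small fraction of the leukocytes, and on maturation they switch on chemokines, co-stimulatory molecules and the actin-bundling protein fascin.

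Values are log2 of the scanner's processed signal minus the array's 75th percentile, so that 0 is the level of a fairly bright spot and not the absence of signal. Differences are CD109-/- minus CD109+/+, with the standard error (SE) of limma's fit over all 16443 tested genes and n = 2 per genotype. A probe entered the test if both arrays of 1 genotype or the other carried the scanner's mark for a signal well above background. The 75th percentile lay between 557 and 688 signal units, the share of spots well above background was 64.3% to 67.0%, and no array had saturated spots. Cd109 itself was well above background on neither CD109-/- array (-7.98 and -7.87) and on both CD109+/+ arrays (-3.70 and -4.66), at least 2.92-fold lower in CD109-/- tumours (adjusted p = 0.299 with limma). In the comparison of genotypes 0 of the 16443 genes passed limma's Benjamini-Hochberg threshold of 0.05 (0% called), and 1219 had an unadjusted p under 0.05 (7.41%). None of the values below therefore passed the test over all genes, and with 2 against 2 arrays an exact two-sided permutation test of 1 gene cannot give a p below 0.333.

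A few members stood apart in the values. Clec9a, Cd209a and Flt3 were higher on both CD109-/- arrays than on either CD109+/+ array, by 1.32 to 2.55 on the log2 scale, whereas Batf3, Fscn1 and Ccl17 overlapped between genotypes. Of the 10 members, 8 passed the filter on low signal. Among them 3 had both CD109-/- arrays above both CD109+/+ arrays, a pattern found in 20.3% of all tested genes, and 1 had them below, a pattern found in 18.3%. The same 3 members had an unadjusted p under 0.05 in the upward direction, which 5.00% of all genes had, and 0 had one in the downward direction (2.41% of all genes). Of the 8, 6 had a higher mean in CD109-/- tumours, as had 50.3% of all genes. Cd209a and Flt3 passed the filter only because they were well above background on both CD109-/- arrays, and Zbtb46 only through the CD109+/+ arrays. The entry of these 3 thus rested on the genotype with the higher mean. The counts over the 8 members are therefore no evidence about dendritic cell genes in general. The median difference of the 8 was 0.55, beside 0.00 for all genes.

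**Figure D1:**
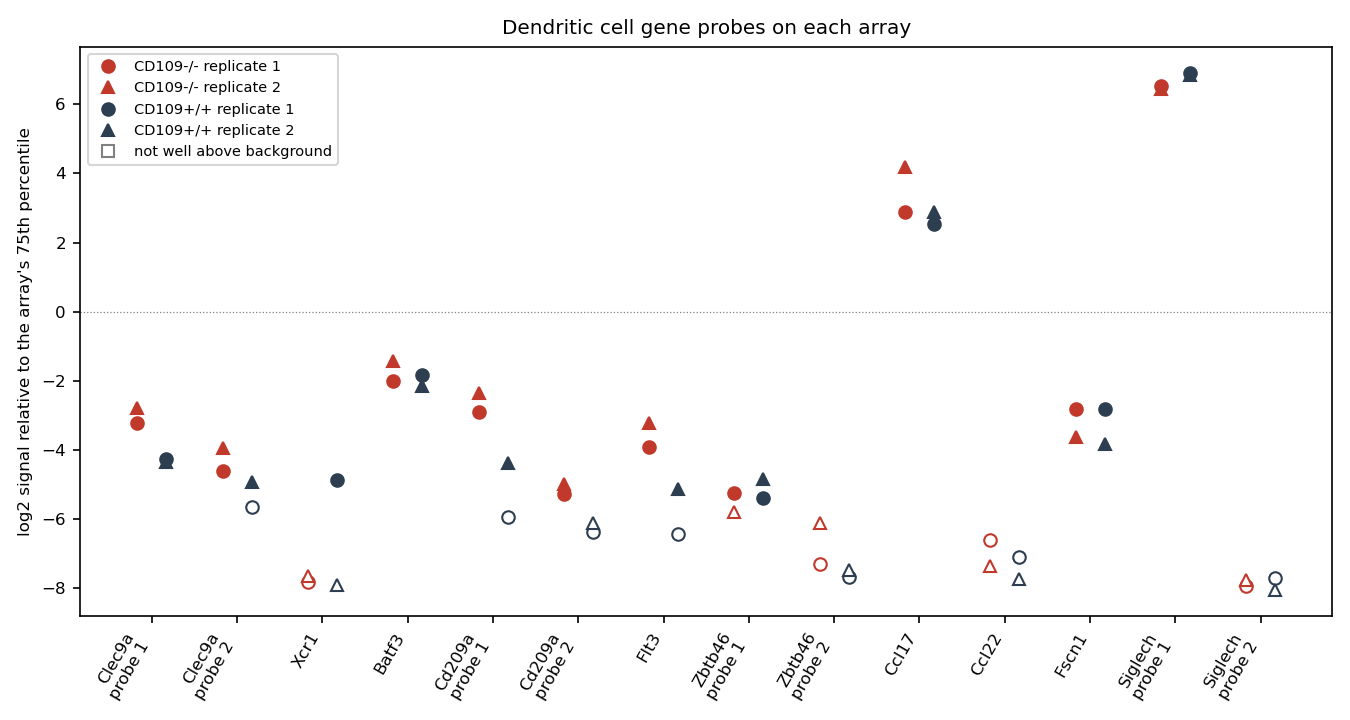
Log2 signal relative to the array's 75th percentile (vertical axis) of the 14 probes of the 10 dendritic cell genes, with 2 CD109-/- arrays (red, left) and 2 CD109+/+ arrays (dark, right) per probe and open symbols where the probe was not well above background. The red symbols lie above the dark ones for both Clec9a and both Cd209a probes, for Flt3 and, at background, for the second Zbtb46 probe. Xcr1, Ccl22 and the second probes of Zbtb46 and Siglech lie near or below -6 on nearly all arrays.

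The 250 bases before and 50 bases after the transcription start of these 3 genes are shown because these members had both CD109-/- arrays above both CD109+/+ arrays. They come from RefSeq's sequence of GRCm38.p6, where all 10 members had an entry, and lie at chr6:129408612-129408911 (plus strand, Clec9a), chr8:3748935-3749234 (minus strand, Cd209a) and chr5:147400440-147400739 (minus strand, Flt3). Capitals mark a match to any of 5 motifs searched on both strands, namely GAGGAAGT (bound by PU.1), TGANTCA (the AP-1 site that BATF family dimers bind), the composite element of ETS and IRF factors (GGAA, 2 bases of any kind, GAAA), an IRF element (GAAA, 2 bases of any kind, GAAA) and a STAT6 site (TTC, 4 bases of any kind, GAA).
Clec9a: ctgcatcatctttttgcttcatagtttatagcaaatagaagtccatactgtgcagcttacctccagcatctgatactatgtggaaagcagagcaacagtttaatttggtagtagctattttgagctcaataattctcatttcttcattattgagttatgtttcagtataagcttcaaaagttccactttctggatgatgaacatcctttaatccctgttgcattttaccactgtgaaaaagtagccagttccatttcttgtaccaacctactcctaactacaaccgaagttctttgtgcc
Cd209a: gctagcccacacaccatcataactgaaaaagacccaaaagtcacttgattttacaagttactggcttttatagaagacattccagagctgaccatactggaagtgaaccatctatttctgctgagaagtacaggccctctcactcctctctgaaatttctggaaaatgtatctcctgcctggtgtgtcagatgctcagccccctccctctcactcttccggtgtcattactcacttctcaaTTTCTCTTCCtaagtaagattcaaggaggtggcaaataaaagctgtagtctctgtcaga
Flt3: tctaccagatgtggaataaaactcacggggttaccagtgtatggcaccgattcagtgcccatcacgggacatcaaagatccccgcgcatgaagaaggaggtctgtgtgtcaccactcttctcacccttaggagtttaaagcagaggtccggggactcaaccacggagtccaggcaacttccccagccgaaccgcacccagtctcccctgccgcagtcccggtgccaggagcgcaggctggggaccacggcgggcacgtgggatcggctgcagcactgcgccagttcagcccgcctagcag
The Cd209a promoter held 1 ETS-IRF element, on the minus strand of the printed sequence and starting at position -9 from the transcription start, and these letters occur in 2.72% of the 32851 promoters of the same length. The Clec9a and Flt3 windows held none of the 5 motifs, which says only that these letters are not in these windows. The shares of all promoters were 3.20% for the PU.1 core, 7.81% for the AP-1 site, 3.44% for the IRF element and 6.95% for the STAT6 site. The ETS-IRF and IRF motifs share letters and can overlap, and no position matched both in the 10 members. Among the members not shown, Zbtb46 held 1 AP-1 site, at position -61.

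Clec9a encodes the receptor DNGR-1, by which type 1 cells sense actin filaments of dead cells. Its brighter probe (A_66_P103027) gave -3.22 and -2.78 in CD109-/- tumours, against -4.27 and -4.36 in CD109+/+ tumours. The genotypes did not overlap, and the probe was well above background on all 4 arrays. The difference was 1.32 ± 0.25 (SE), a 2.49-fold higher signal in CD109-/- tumours (unadjusted p = 0.00451 and adjusted p = 0.507 with limma). The second Clec9a probe (A_55_P2593238) gave -4.60 and -3.95 in CD109-/- tumours, against -5.65 and -4.92 in CD109+/+ tumours, a difference of 1.01 ± 0.38 in limma's fit over all probes (adjusted p = 0.723). Both Clec9a probes thus lay higher on both CD109-/- arrays, the second by less and with 1 of the 2 CD109+/+ arrays not well above background.

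Xcr1, the chemokine receptor by which type 1 cells find cells that make XCL1, did not share that pattern. Its single probe gave -7.81 and -7.63 in CD109-/- tumours, against -4.86 and -7.90 in CD109+/+ tumours. Only CD109+/+ replicate 1 was well above background, and the other 3 arrays lay together near the scanner's lowest values. Xcr1 was therefore not tested, and no fold is given for it.

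Batf3 encodes the transcription factor on which type 1 cells depend, and activated T cells also express it. The Batf3 signal was -2.00 and -1.43 in CD109-/- tumours, against -1.83 and -2.16 in CD109+/+ tumours. CD109-/- replicate 2 was the highest, CD109-/- replicate 1 lay between the CD109+/+ arrays, and the difference of 0.28 ± 0.30 (SE) was within its error (adjusted p = 0.874 with limma). Without CD109-/- replicate 2 the Batf3 difference was -0.011.

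Other genes of type 1 cells went both ways. Of the 11 listed, 9 were tested, 5 higher and 4 lower in CD109-/- tumours, and 2 of the higher ones had an unadjusted p under 0.05. Of all tested genes 50.3% had a higher mean, and 5.00% had an unadjusted p under 0.05 upward and 2.41% downward. These shares stand beside the counts of every list below. Wdfy4, which type 1 cells need to cross-present antigen, had signals of 1.55 and 1.79 in CD109-/- tumours, against 0.19 and 0.49 in CD109+/+ tumours, a difference of 1.33 ± 0.24 (SE; adjusted p = 0.504 with limma). Cadm1, an adhesion molecule of type 1 cells and of epithelium, differed by 0.90 ± 0.29 and by 0.97 at its second probe. Naaa, a lysosomal hydrolase, differed by 0.63 ± 0.24. Irf8, the lineage factor of type 1 and plasmacytoid cells, which B cells and macrophages express too, differed by 0.34 ± 0.24. The lower genes were Id2 at -0.37, with both CD109-/- arrays below both CD109+/+ arrays, and Snx22, Nfil3 and Tlr3, which overlapped. Snx22 differed by -0.31, Nfil3 by -0.24 and Tlr3 by -0.09, with second probes at -0.26 for Nfil3 and 0.41 for Tlr3. Over the list 5 genes had both CD109-/- arrays above both CD109+/+ arrays and 1 below, beside 20.3% and 18.3% of all tested genes. The median of this list was 0.34, and 0.15 without CD109-/- replicate 1.

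Cd209a encodes a C-type lectin of the DC-SIGN family that marks type 2 cells and dendritic cells derived from monocytes. Its brighter probe (A_55_P2018061) gave -2.89 and -2.36 in CD109-/- tumours, against -5.95 and -4.39 in CD109+/+ tumours. The genotypes did not overlap, and on CD109+/+ replicate 1 the probe was not well above background. The difference of 2.55 ± 0.58 (SE) was the largest among the members (unadjusted p = 0.00914 and adjusted p = 0.516 with limma). Leaving out 1 array moved it between 1.77 and 3.33, the lower value without CD109+/+ replicate 1, and no fold is given with that array at background. The second Cd209a probe (A_55_P2743470) gave -5.28 and -4.99 in CD109-/- tumours, against -6.36 and -6.11 in CD109+/+ tumours. It was not well above background on either CD109+/+ array, so its signal in CD109-/- tumours was at least 1.53-fold higher (measured difference 1.10 ± 0.25, adjusted p = 0.587 with limma over all probes).

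For this bound the CD109+/+ level on each array was taken as the lowest signal of any probe well above background, or as the probe's own signal if that was higher. Relatives of Cd209a in the same gene cluster were mostly dim. Cd209d differed by 0.09 ± 0.21 (SE) and Cd209g by -0.21 ± 0.28, both overlapping between genotypes at the tested probe. Cd209e gave -5.47 and -7.07 in CD109-/- tumours, against -7.91 and -7.67 in CD109+/+ tumours, without overlap, but only CD109-/- replicate 1 was well above background and it was not tested. The genes Cd209b, Cd209c and Cd209f were not well above background on any array. Whether Cd209a probes also bind transcripts of these relatives was not tested.

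Among 8 further genes of type 2 cells 7 were tested, 4 higher and 3 lower in CD109-/- tumours, and 3 of the higher ones had an unadjusted p under 0.05. Clec10a, a galactose-binding lectin of type 2 cells and some macrophages, had signals of -2.33 and -2.32 in CD109-/- tumours, against -4.37 and -3.68 in CD109+/+ tumours, a difference of 1.70 ± 0.31 (SE; adjusted p = 0.504 with limma). Irf4, the transcription factor that type 2 cells need to migrate, had -3.67 and -3.05 in CD109-/- tumours, against -5.14 and -4.43 in CD109+/+ tumours, a difference of 1.42 ± 0.37 (adjusted p = 0.544 with limma). Lymphocytes and plasma cells also express Irf4. Sirpa, which binds CD47 and is shared with macrophages, differed by 0.98 ± 0.27. None of these 3 overlapped between genotypes. The lower genes were Itgam at -0.50, with both CD109-/- arrays below both CD109+/+ arrays, and Mgl2 at -0.04 and Klf4 at -0.01, which overlapped. Second probes gave -0.21 for Itgam and 0.42 for Mgl2, both with overlap. In the list 4 genes had both CD109-/- arrays above both CD109+/+ arrays and 1 below, beside 20.3% and 18.3% of all tested genes. The list's median was 0.51, and 0.34 without CD109-/- replicate 1.

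Flt3 encodes the receptor kinase that drives dendritic cell growth and is also found on early blood progenitors. Its single probe gave -3.92 and -3.22 in CD109-/- tumours, against -6.42 and -5.12 in CD109+/+ tumours. The genotypes did not overlap, and CD109+/+ replicate 1 was not well above background. The difference was 2.20 ± 0.53 (SE; unadjusted p = 0.0113 and adjusted p = 0.541 with limma), and it lay between 1.55 and 2.85 when 1 array was left out. No fold is given for Flt3, since 1 CD109+/+ array was at background. The ligand gene Flt3l gave -1.04 and -0.12 in CD109-/- tumours, against -1.15 and -0.67 in CD109+/+ tumours, which overlap. It differed by 0.33 ± 0.40, and by -0.06 at its second probe.

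Zbtb46 encodes a transcription factor found in conventional dendritic cells and, outside the blood lineage, in endothelium. Its brighter probe (A_52_P241508) gave -5.23 and -5.80 in CD109-/- tumours, against -5.39 and -4.85 in CD109+/+ tumours, close to background throughout and not well above it on CD109-/- replicate 2. The genotypes overlapped, and the difference was -0.40 ± 0.33 (SE; adjusted p = 0.826 with limma). The second probe (A_52_P214042) was not well above background on any array, at -7.31 and -6.12 in CD109-/- tumours, against -7.67 and -7.46 in CD109+/+ tumours, so the probes disagree in sign and Zbtb46 gives no direction. Endothelial markers were higher in CD109-/- tumours in 8 of 8 genes with a median of 0.30, led by the angiopoietin receptor gene Tek at 0.93 ± 0.23 and the sialomucin gene Emcn at 0.59 ± 0.29. Their summed level was 16.0 and 20.1 times the 75th percentile in CD109-/- tumours, against 18.5 and 13.6 times in CD109+/+ tumours, and 0 of them were below background on all arrays. Leaving out CD109-/- replicate 2 brought the endothelial median to 0.17, leaving out CD109-/- replicate 1 to 0.48, and leaving out CD109+/+ replicate 1 to 0.49. The part of endothelium in the Zbtb46 signal was not tested.

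Genes shared by dendritic cells at large had higher values in CD109-/- tumours in 11 of 12 cases, beside 50.3% of all tested genes. Both CD109-/- arrays lay above both CD109+/+ arrays in 8 of the 12, beside 20.3% of all tested genes. The median difference of the 12 was 0.58, and 4 had an unadjusted p under 0.05, all of them higher (5.00% of all genes). The median was 0.23 with normexp, a model-based background correction applied to the median spot signal, and 0.36 with the mean of a gene's probes. Bcl11a, 1 of the 8, passed the filter only through the CD109-/- arrays. With signal required on all 4 arrays 11 genes were kept, with a median of 0.47. Jaml, an adhesion molecule also found on granulocytes and T cells, differed by 1.08 ± 0.31 (SE), the transcriptional co-repressor gene Cbfa2t3 by 0.98 ± 0.29 and Itgax, the CD11c gene that alveolar macrophages share, by 0.86 ± 0.21. None of the 12 passed limma's adjusted threshold (adjusted p = 0.541 for Itgax).

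**Figure D2:**
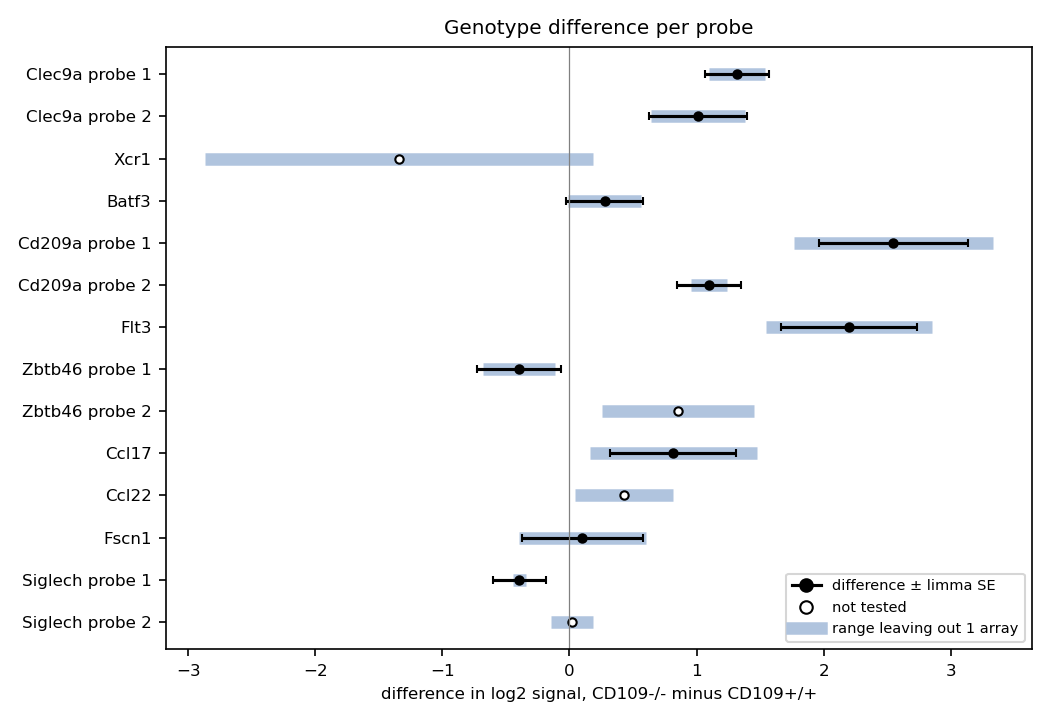
Difference in log2 signal between CD109-/- and CD109+/+ tumours (horizontal axis) for each of the 14 probes. Points with bars are differences ± limma's SE (n = 2 per genotype), open points were not tested, and pale bands span the values obtained when 1 array was left out. The bands of both Clec9a probes, both Cd209a probes, Flt3 and Ccl17 stay above 0. So do those of Ccl22 and the second Zbtb46 probe, which were not well above background on any array. The bands of Fscn1 and Xcr1 cross 0, and that of Batf3 reaches -0.011.

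The mature-state members were led by Ccl17, a chemokine of activated dendritic cells that draws CCR4-bearing T cells and that alveolar macrophages can also make. Ccl17 gave 2.87 and 4.19 in CD109-/- tumours, against 2.54 and 2.89 in CD109+/+ tumours. It was bright on every array, and CD109-/- replicate 2 stood above the other 3 arrays, among which CD109-/- replicate 1 lay just under CD109+/+ replicate 2. The difference was 0.82 ± 0.50 (SE; adjusted p = 0.765 with limma). Leaving out CD109-/- replicate 2 brought it to 0.16, and leaving out CD109-/- replicate 1 to 1.47.

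Ccl22, the other CCR4 ligand and a neighbour of Ccl17 on the same chromosome, was not well above background on any array. Its values were -6.59 and -7.36 in CD109-/- tumours, against -7.08 and -7.73 in CD109+/+ tumours, which overlap, and it was not tested. The promoters of this pair are shown because one gene gave a bright signal on all arrays and the other none above background. They lie at chr8:94810203-94810502 (plus strand, Ccl17) and chr8:94745434-94745733 (plus strand, Ccl22) in GRCm38.p6, with capitals as above.
Ccl17: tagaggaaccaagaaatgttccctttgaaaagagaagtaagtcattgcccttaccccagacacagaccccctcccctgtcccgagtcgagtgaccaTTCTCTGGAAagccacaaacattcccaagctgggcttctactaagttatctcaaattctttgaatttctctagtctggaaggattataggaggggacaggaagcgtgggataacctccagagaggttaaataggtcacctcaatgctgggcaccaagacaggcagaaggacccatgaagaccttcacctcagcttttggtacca
Ccl22: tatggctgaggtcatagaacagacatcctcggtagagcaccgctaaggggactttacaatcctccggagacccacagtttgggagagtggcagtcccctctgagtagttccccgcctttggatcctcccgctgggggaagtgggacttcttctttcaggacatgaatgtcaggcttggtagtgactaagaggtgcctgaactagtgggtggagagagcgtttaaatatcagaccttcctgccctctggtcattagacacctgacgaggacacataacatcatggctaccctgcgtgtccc
The Ccl17 window held 1 STAT6 motif, TTCTCTGGAA at position -154, and the Ccl22 window held none of the 5 motifs. Both probes of Ccr4, the receptor of CCL17 and CCL22, were not well above background on any array, and nor were Il4 and Il13, the cytokines that signal through STAT6.

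Fscn1 encodes fascin, which mature dendritic cells use for their dendrites and which carcinoma cells and other cells can also express. Fscn1 gave -2.80 and -3.63 in CD109-/- tumours, against -2.82 and -3.82 in CD109+/+ tumours. The genotypes overlapped almost completely, with replicate 1 above replicate 2 in each, and the difference was 0.10 ± 0.48 (SE; adjusted p = 0.979 with limma). Leaving out CD109+/+ replicate 2 turned it to -0.40, and leaving out CD109-/- replicate 1 to -0.31. Epithelial and tumour cell markers had a median difference of -0.24, with lower values in CD109-/- tumours in 5 of 7 genes. The median level of these genes was 5.17 and 3.68 on the CD109-/- arrays, against 5.28 and 4.04 on the CD109+/+ arrays, so it too was higher in replicate 1 of each genotype, and their part in the Fscn1 signal was not tested. Their summed level was 858 and 691 times the 75th percentile in CD109-/- tumours, against 1102 and 794 times in CD109+/+ tumours.

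Of 17 further genes of mature and migrating dendritic cells all were tested, 13 higher and 4 lower in CD109-/- tumours (median 0.38), and 4 of the higher ones had an unadjusted p under 0.05. Ccr7, the receptor that guides mature cells to lymph nodes and that naive lymphocytes carry too, had signals of -0.90 and -1.25 in CD109-/- tumours, against -1.95 and -2.10 in CD109+/+ tumours. It differed by 0.95 ± 0.24 (SE; adjusted p = 0.541 with limma) and by 0.87 at its second probe. Cd86, a co-stimulatory ligand of CD28, differed by 0.96 ± 0.24, with further probes at 0.99 and 0.47, and Pdcd1lg2, the PD-L2 gene, by 0.95 ± 0.28. All 3 had both CD109-/- arrays above both CD109+/+ arrays at the probe that stood for the gene. Over the list 8 genes had that pattern, beside 20.3% of all tested genes. Another 3 had both CD109-/- arrays below both CD109+/+ arrays, beside 18.3%. They were Il12b at -0.23, Socs2 at -0.38 and Marcksl1 at -0.54, with second probes at -0.11 for Socs2 and -0.73 for Marcksl1. Il12b was not well above background on either CD109-/- array.

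Plasmacytoid cells had Siglech, a sialic acid-binding lectin, as their only member, and its probes disagreed. One probe (A_55_P2141013) gave 6.54 and 6.44 in CD109-/- tumours, against 6.91 and 6.86 in CD109+/+ tumours, signals of 59545 to 77479 units that place it far above the 75th percentile. Both CD109-/- arrays lay below both CD109+/+ arrays, and the difference was -0.40 ± 0.21 (SE; adjusted p = 0.740 with limma). The other Siglech probe (A_55_P2734922), assigned to another transcript of the gene, was not well above background on any array, with values between -8.04 and -7.71. Levels of different probes cannot be set against each other, but a bright signal at one and none above background at the other leave it unsettled what the bright probe measured, and its values are not read as plasmacytoid cells.

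Other plasmacytoid genes went both ways. Of the 16 listed 14 were tested, 10 higher and 4 lower in CD109-/- tumours, and 0 had an unadjusted p under 0.05. Their differences ranged from -0.61 to 0.74 with a median of 0.09, which became 0.41 on leaving out CD109-/- replicate 2, 0.33 on leaving out CD109+/+ replicate 1 and 0.22 on leaving out CD109+/+ replicate 2. Bst2, an interferon-induced surface protein that many cells carry, differed by 0.74 ± 0.29 (SE), the endosomal exonuclease gene Pld4 by 0.60 ± 0.29 and the gut-homing receptor gene Ccr9 by 0.44 ± 0.22. Tcf4, the lineage factor of plasmacytoid cells, which epithelial and stromal cells also express, differed by 0.13 ± 0.38, and its further probes ranged from -0.17 to 0.44. The lower genes were Upb1 at -0.61, Ly6d at -0.53, Cox6a2 at -0.44 and Runx2 at -0.32, all overlapping between genotypes. Further Runx2 probes gave -0.14 and 0.25.

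Ligands and receptors that act on dendritic cells were read last. Of 16 genes 12 were tested, 10 higher and 2 lower in CD109-/- tumours (median 0.66), and 4 had an unadjusted p under 0.05. The median was 0.28 without CD109+/+ replicate 1 and 0.35 with normexp. Ccl19 passed the filter only through the CD109-/- arrays, so its entry favoured a higher value. With signal required on all 4 arrays 11 genes were kept, with a median of 0.49. Ccl19, the CCR7 ligand made by lymphoid stroma and mature dendritic cells, gave -4.34 and -4.39 in CD109-/- tumours, against -7.86 and -6.51 in CD109+/+ tumours. Since neither CD109+/+ array was well above background, Ccl19 was at least 2.62-fold higher in CD109-/- tumours (adjusted p = 0.504 with limma). Ccr6, a receptor of B cells, T cells and some dendritic cells, differed by 1.71 ± 0.26 (SE), with -2.91 and -2.67 in CD109-/- tumours, against -4.69 and -4.30 in CD109+/+ tumours. Xcl1, the XCR1 ligand made by NK and CD8 T cells, gave -5.26 and -5.66 in CD109-/- tumours, against -7.65 and -7.87 in CD109+/+ tumours. It was well above background on CD109-/- replicate 1 alone, so it was not tested and no fold is given.

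**Figure D3:**
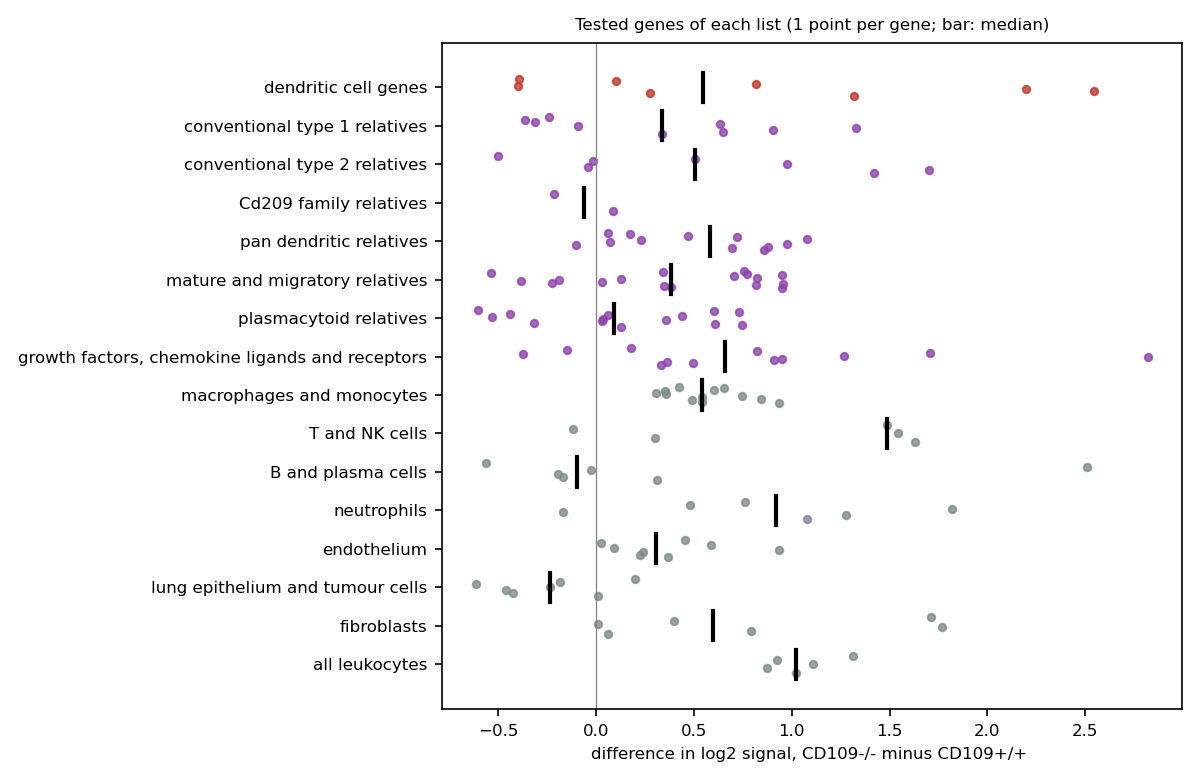
Difference in log2 signal between CD109-/- and CD109+/+ tumours (horizontal axis) for the tested genes of each list, 1 point per gene, with a black bar at the list's median. Dendritic cell genes are in red with a median of 0.55, related genes in purple and markers of other cells in grey. The 5 genes of all leukocytes lie between 0.87 and 1.31. Clec9a, Cd209a and Flt3 lie to the right of them on this scale, Clec9a only just (1.32). With normexp Clec9a, Cd209a and Flt3 have 0.52, 0.87 and 0.60, left of a leukocyte median of 0.94.

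Markers of other cells differed between the same arrays. The 5 genes common to all leukocytes (Ptprc, Coro1a, Laptm5, Cd52 and Cd53) were higher on both CD109-/- arrays than on either CD109+/+ array, by 0.87 to 1.31 with a median of 1.02. That pattern was found in 20.3% of all tested genes. The summed level of these 5 was 27.5 and 25.3 times the 75th percentile in CD109-/- tumours, against 14.6 and 12.8 times in CD109+/+ tumours, and all 5 were detected. At the probe that stood for the gene, Clec9a, at 1.32 ± 0.25 (SE), lay just above the largest of these 5 differences. Cd209a and Flt3 lay further above them. With the normexp values the order turned, with 0.52 for Clec9a, 0.87 for Cd209a and 0.60 for Flt3 beside a leukocyte median of 0.94. The second probes of Clec9a (1.01) and Cd209a (1.10) lay within the range of the 5 leukocyte genes. The members thus have no settled place relative to these genes. In bulk tumour RNA a larger number of cells of a type and more RNA per cell cannot be told apart.

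Macrophage and monocyte markers were higher in CD109-/- tumours in 12 of 12 genes, with a median of 0.54. They were led by Adgre1, the F4/80 gene, at 0.94 ± 0.25 (SE) and Siglecf, which marks alveolar macrophages and eosinophils, at 0.75 ± 0.22. Their summed level was 188 and 225 times the 75th percentile in CD109-/- tumours, against 202 and 123 times in CD109+/+ tumours, which overlap. T and NK cell markers were higher in 4 of 5 tested genes (median 1.49; summed level 3.72 and 3.32 times in CD109-/- tumours, against 3.12 and 2.88 times in CD109+/+ tumours), while Ncr1 and Klrb1c, both NK cell genes, were not well above background on any array. The T and NK cell median was 0.83 without CD109-/- replicate 1, 0.64 with normexp and 0.86 with no filter on dim probes. B and plasma cell markers were higher in 2 of 6 genes (median -0.10), with a summed level of 5.60 and 5.55 times in CD109-/- tumours, against 1.91 and 3.74 times in CD109+/+ tumours. The count and the summed level thus went different ways. Differences in this list ranged from -0.56 to 2.51, with 1 gene higher and 2 lower without overlap, beside 20.3% and 18.3% of all tested genes. Neutrophil markers were higher in 5 of 6 genes (median 0.92), with 92.7 and 97.3 times in CD109-/- tumours, against 91.2 and 85.0 times in CD109+/+ tumours. Leaving out CD109+/+ replicate 2 brought the neutrophil median to 0.48, and leaving out CD109+/+ replicate 1 to 1.48. Fibroblast markers were higher in 6 of 6 genes (median 0.60), with 38.9 and 33.2 times in CD109-/- tumours, against 27.6 and 24.9 times in CD109+/+ tumours. Several genes named above are shared with these cells, among them Irf4, Ccr6 and Ccr7 with lymphocytes and Itgax, Sirpa, Clec10a and Ccl17 with macrophages, and the part of these cells in the values was not tested.

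The size of the differences of dim genes depended on how the signal was taken. The normexp values differ from the processed signal in 3 ways at once, namely the median spot signal, the background correction and an added offset of 50, and which of them moved the values was not tested. With them the difference was 0.52 for Clec9a, 0.87 for Cd209a and 0.60 for Flt3. Ccl17, which was bright on all arrays, kept its difference at 0.82. The direction of the 8 tested members was the same with both sets of values.

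**Figure D4:**
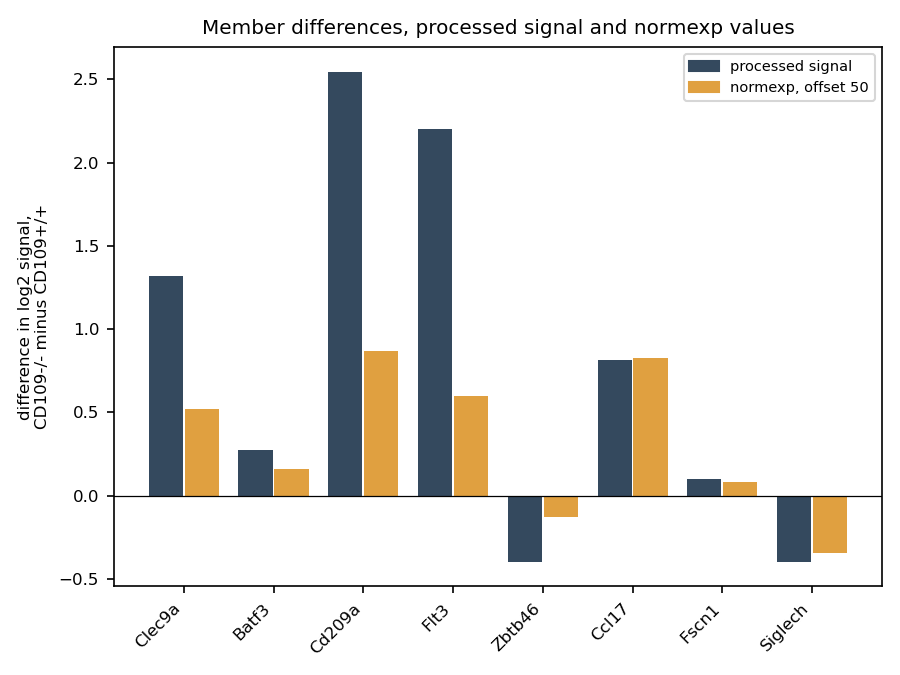
Difference in log2 signal between CD109-/- and CD109+/+ tumours (vertical axis) of the 8 tested members from the scanner's processed signal (dark bars) and from the median spot signal after normexp background correction with an offset of 50 (orange bars). Bars of the dim genes Clec9a, Cd209a and Flt3 shrink to 0.52, 0.87 and 0.60, while that of Ccl17 stays at 0.82.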

How the data were processed

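Cy3-labelled cRNA was made from 100 ng of lung tumour RNA, per the labels' protocols, and read on Agilent arrays in 1 colour. The deposited scanner output came from Agilent Feature Extraction 12.1.0.3, per the file headers, and its processed signal is an intensity on a linear scale. The authors' further table held the same intensity values times 1 constant per array (1.04 to 1.21), by a rule not given in the sources used here, with column medians of 59.5 and 69.2 for CD109-/- and 58.8 and 76.1 for CD109+/+.

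Control spots and spots with an outlier mark (58 to 73 per array) were left out, spots of 1 probe were averaged, and the processed signal was taken as log2 and the 75th percentile of its array subtracted. Probes were named through unversioned RefSeq accessions of GRCm38.p6 (34566 of 56605 probes, 23787 genes). Where a gene had several tested probes, the one brightest on average stood for it, and other probes are given from the fit over 35769 tested probes. The genotype comparison used limma 3.58.1 (lmFit, eBayes; R 4.3.3) on all 4 arrays, two-sided, with no covariate and with Benjamini-Hochberg adjustment. The procedure was tested on simulated data. The members, lists, motifs and named genes were chosen with earlier results of these data known. The genes named were all members, the 3 tested genes with the largest absolute moderated t in each list of related genes, 2 in the macrophage and endothelial lists, and Irf8, Irf4, Ccr7, Tcf4, Flt3l, Xcl1 and Ccr4. The other Cd209 genes, Itgam, Mgl2, Klf4, Bcl11a, Il12b, Socs2, Marcksl1, Il4, Il13, Ncr1, Klrb1c and the leukocyte markers were named after their values were seen. So were the lower genes Id2, Snx22, Nfil3 and Tlr3 of type 1 cells and Upb1, Ly6d, Cox6a2 and Runx2 of plasmacytoid cells. Lists are described by counts and medians without a test. Cd300c had no named probe. Normexp ran on the median spot signal, since the mean spot signal is not in the columns used here. The 4 arrays shared 1 slide and 1 scan session. Precision is limited by the number of arrays.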

Additional observations from a re-analysis of the deposited data

How the results depend on the processing

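Each value was recomputed under 13 alternatives, and 0 genes passed limma's adjusted threshold under any of them (at an unadjusted p under 0.05, 1030 to 1898 genes, and 553 to 1929 when 1 array was left out). Of 101 member values under an alternative 98 kept their sign, and the lowest adjusted p of a member was 0.261. Clec9a, Cd209a, Flt3, Ccl17, Zbtb46 and Siglech kept their sign under every alternative in which they were tested. The second probes of Zbtb46 and Siglech, at 0.86 and 0.019 and so of opposite sign, were not tested and entered none of the alternatives. The sign turned for Fscn1 without CD109+/+ replicate 2 (-0.40) or CD109-/- replicate 1 (-0.31) and for Batf3 without CD109-/- replicate 2, with ranges over the arrays left out of -0.40 to 0.60 for Fscn1 and -0.011 to 0.57 for Batf3. The members' median was 0.34 to 1.02 and the number higher 5 to 6 of 8 when 1 array was left out, the largest median without CD109-/- replicate 1, the only male. Elsewhere the median lay between 0.28 and 0.59, the lowest when signal was required on every array, which kept 5 members and neither Cd209a nor Flt3. With no filter on dim probes Xcr1 differed by -1.34 ± 1.04 and Ccl22 by 0.43 ± 0.40. List medians turned sign for Cd209 relatives (-0.06) with no filter (0.85, 6 genes) and without CD109+/+ replicate 2 (0.058), for B and plasma cells (-0.10) with the mean of a gene's probes (0.31) and without CD109+/+ replicate 2 (0.17) or CD109-/- replicate 1 (0.15), and for epithelium (-0.24) without CD109+/+ replicate 1 (0.051). With 1 array left out the ranges were -0.19 to 0.058 for the Cd209 relatives, -0.33 to 0.17 for B and plasma cells and -0.65 to 0.051 for epithelium. The cause was not tested.

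The labels give both genotypes replicates 1 and 2 without saying that a number marks anything shared. Deviations of same-numbered arrays from their genotype means correlated at 0.36. With the replicate number as a block 1898 genes, against 1219, had an unadjusted p under 0.05, 0 passed the adjusted threshold, and the members' median stayed at 0.55. A slide block was not run, as all arrays shared 1 slide. Signal close to background limits Xcr1, Ccl22, Zbtb46 and the CD109+/+ values of Cd209a and Flt3.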
